A study of Mus musculus with 8 samples.

Results

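The genes Ms4a2, Fcer1a, Mcpt8, Prss34, Cpa3, Hdc and Cd200r3 are used as markers of mast cells and basophils. They were followed in bulk RNA-Seq of murine MKs cultured alone or with MSCs, which does not show which cells made their RNA. They were chosen by symbol, and the count table holds 7 of the 7 among its 13387 genes. The libraries came from wild-type C57BL/6 mice, which the study's methods place at 8 to 12 weeks of age. Cells were enriched from flushed bone marrow with CD41 beads and cultured for 18 hours in medium with thrombopoietin, either alone (4 libraries) or on sorted CD51+CD140a+ MSCs from wild-type mice (4 libraries), with 5 wells pooled for each library. CD41 enrichment is not a sort to purity, so other marrow cells can remain in either culture. By the labels the RNA came from MKs after platelets were removed, whereas the methods describe RNA of platelets. The study states 4 mice per group for this RNA-Seq, but no label ties a library to an animal. The p-values therefore measure the spread between these libraries.

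Mast cells and basophils are granulocytes armed by IgE, which is held on their surface by the high-affinity receptor FcεRI. When antigen links the receptors, the cells release histamine and proteases from granules and make lipid mediators and cytokines. Both develop in the bone marrow from progenitors that share the GATA factors with MKs and erythroid cells, and basophils finish maturation there whereas mast cells do so in tissues. Serglycin binds the positively charged proteases in the granules, and histamine is packed beside them by a vesicular transporter.

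The GATA factors bind the letters AGATAA or TGATAA, and also AGATAG or TGATAG, and these 4 motifs were searched on both strands in the 250 bases before the RefSeq start site of each member (GRCm38.p6, 7 of 7 matched). At least 1 of them was found before 6 of the 7 genes, against 17.5% of the promoters of genes tested and 26.5% of all promoters in the RefSeq table. Mcpt8 held none in this window, and the motif of Hdc began 221 bases before its start. Both depend on the start used. On the minus strand, GENCODE starts Mcpt8 at 56085273 and Hdc at 126619299, upstream of the RefSeq starts. The window of Mcpt8 thus lies partly, and that of Hdc wholly, inside the GENCODE gene. Windows before the GENCODE starts were not searched. The last 100 bases before the start are printed for the other 5 genes and for Mcpt8, because the motifs of these 5 genes lie there, with motif letters in capitals.
Ms4a2, chr19:11623720-11623819, minus strand: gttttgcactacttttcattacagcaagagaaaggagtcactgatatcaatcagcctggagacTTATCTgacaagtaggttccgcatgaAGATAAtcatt
Fcer1a, chr1:173227230-173227329, minus strand: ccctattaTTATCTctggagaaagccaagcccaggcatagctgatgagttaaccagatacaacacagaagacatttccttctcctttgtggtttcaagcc
Cpa3, chr3:20242182-20242281, minus strand: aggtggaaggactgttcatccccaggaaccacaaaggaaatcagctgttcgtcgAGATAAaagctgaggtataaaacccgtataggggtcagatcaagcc
Prss34, chr17:25298294-25298393, plus strand: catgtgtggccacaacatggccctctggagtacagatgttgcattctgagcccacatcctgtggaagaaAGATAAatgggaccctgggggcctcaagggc
Cd200r3, chr16:44943578-44943677, plus strand: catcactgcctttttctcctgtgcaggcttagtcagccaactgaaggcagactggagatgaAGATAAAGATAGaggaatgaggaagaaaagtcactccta
Mcpt8, chr14:56085198-56085297, minus strand: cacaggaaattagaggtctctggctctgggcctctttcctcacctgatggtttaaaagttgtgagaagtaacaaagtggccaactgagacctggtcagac
The motif began 46 bases before the start in Cpa3, 31 in Prss34 and 92 in Fcer1a. In Cd200r3 adjoining motifs began at 39 and 33 bases, and in Ms4a2 motifs began at 37 and 11 bases. Cd200r3 and Ms4a2 each held another one further upstream, at 115 and 224 bases. A match describes these letters alone, and binding was not measured.

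The libraries held 4939874 to 12523616 counts, and levels are given in CPM, the usual count unit scaled to library depth, with edgeR's TMM factors. Replicate 3 of the cocultures stood apart. It had counts on 10735 genes, against 12406 to 13193 in the other libraries, and 1012 genes were at 0 there that held at least 10 counts in each other library. Results are therefore also given without it. A floor of 3 counts corresponded to 0.284 to 0.662 CPM, and such floors cover counting error only. The intervals of fold changes given below come from the edgeR fit and include the spread between libraries.

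Coculture with MSCs was compared with culture of MKs alone. Of the 7 genes, 5 were called lower in cocultures and 0 were called higher, at a fold change of at least 2, an adjusted p of at most 0.05 (edgeR's quasi-likelihood test, Benjamini-Hochberg over 11722 genes) and a mean level of 1 CPM or more in either culture. Among all genes tested, 7.31% were called lower and 13.2% were called higher. Ms4a2, Fcer1a, Cpa3, Hdc and Cd200r3 fell, whereas Prss34 and Mcpt8 missed the threshold. Among the 7 genes the median log2 fold change was -3.20, against 0.03 over all genes tested, and 7 of 7 values were negative. Together the 7 genes summed to 1169 to 1475 CPM in MKs cultured alone and 101 to 292 CPM in cocultures, here per raw total without TMM. In bulk RNA, fewer cells of a type and less RNA per cell cannot be told apart. Without replicate 3 of the cocultures, 6 of the 7 were called lower, against 15.4% of all genes. Leaving out any one of the 4 libraries of MKs cultured alone, or replicate 2 or 4 of the cocultures, gave 3, with Fcer1a and Cd200r3 no longer called. In those 6 fits 4.49%, 4.42%, 4.76%, 4.52%, 4.75% and 5.17% of all genes were called lower, in that order. Without replicate 1 of the cocultures 5 were called, against 5.91% of all genes. Other scalings and filters on the 8 libraries left 5 called, against 7.52% with DESeq2's size factors in edgeR, 6.36% by library size, 6.13% by MK markers and 6.66% without a low-count filter, while DESeq2 called 6 (10.7%), glmTreat 3 (2.58%) and a minimum of 10 counts in every library 2 (10.6%).

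**Figure D1:**
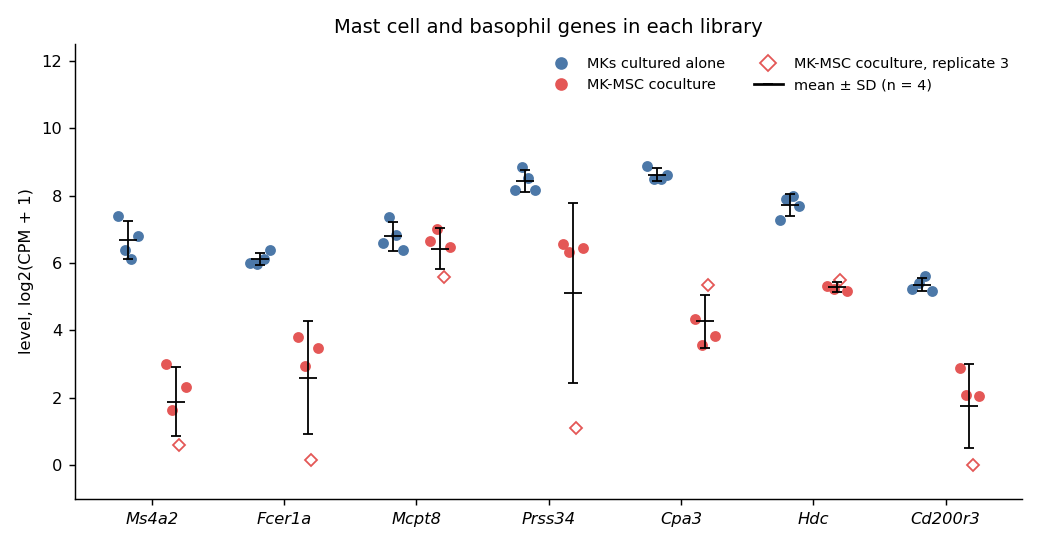
Level of each gene as log2(CPM + 1) on the vertical axis in the 4 libraries of MKs cultured alone (blue) and the 4 cocultures (red, with replicate 3 as an open diamond), with bars for the mean ± SD (n = 4). The groups overlap for Mcpt8 and do not overlap for the other 6 genes. Replicate 3 lies far below the other cocultures for Prss34, and is also the lowest coculture for Ms4a2, Fcer1a, Mcpt8 and Cd200r3.

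The groups did not overlap for 6 of the 7 genes, each lower in cocultures, where 21.1% of all genes tested were lower and 19.3% higher without overlap. For each of these 6 genes a two-sided exact permutation test of log2(CPM + 1) gave p = 0.0286, which is the lower limit for 4 against 4 libraries. Any gene whose groups do not overlap gives this p, so it restates the separation and adds no support to it. The fold changes below come from edgeR.

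Ms4a2 (chr19:11615523-11623719, minus strand, GRCm38) encodes the beta chain of FcεRI, which amplifies its signal. It was measured at 169, 82.0, 69.0 and 110.3 CPM in MKs cultured alone and at 7.01, 2.08, 0.523 and 3.99 CPM in cocultures 1 to 4. Each library of MKs cultured alone stood far above each coculture. The mean fell from 107 ± 44.3 to 3.40 ± 2.79 CPM (SD, n = 4 each), with a log2 fold change of -4.97 ± 0.74 (SE, edgeR, adjusted p = 0.00169). This was the largest fall among the 7 genes, and it remained called with each library left out, at -5.63 to -4.59.

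Fcer1a (chr1:173221284-173227214, minus strand) encodes the alpha chain, which binds IgE. It was present at 63.6, 61.9, 68.8 and 82.3 CPM in MKs cultured alone and at 12.9, 6.77, 0.105 and 10.2 CPM in cocultures. Replicate 3 of the cocultures held 1 count of this gene, and the other cocultures held 52 to 136. The log2 fold change was -3.20 ± 0.91 (SE, edgeR, adjusted p = 0.0341), and -2.80 without replicate 3 of the cocultures (edgeR, adjusted p = 5.66e-08). Fcer1g, the gamma chain that FcεRI shares with the collagen receptor GPVI of platelets and with other Fc receptors, had 899 ± 196 CPM in MKs cultured alone and 504 ± 142 CPM in cocultures. Its log2 fold change of -0.84 (edgeR, adjusted p = 0.041) was under the 2-fold limit, and its groups overlapped.

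Cpa3 (chr3:20215620-20242181, minus strand) encodes carboxypeptidase A3, a zinc protease of mast cell and basophil granules. It stood at 473, 360.4, 357.5 and 394 CPM in MKs cultured alone and at 19.1, 10.9, 39.3 and 13.2 CPM in cocultures. Replicate 3 was the highest coculture for Cpa3, while it was the lowest for both receptor chains. The log2 fold change was -4.26 ± 0.43 (SE, edgeR, adjusted p = 0.000205), and the gene remained called with each library left out.

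Prss34 (chr17:25298394-25300165, plus strand) encodes mast cell protease 11, a tryptase-like serine protease of basophils. Values were 284, 462, 368 and 287 CPM in MKs cultured alone and 93.8, 78.8, 1.15 and 85.3 CPM in cocultures. The groups did not overlap, but the cocultures were spread widely because replicate 3 held 11 counts, against 492 to 990 in the other cocultures. The log2 fold change was -2.44 ± 0.90 (SE, edgeR, adjusted p = 0.0851), with a 95% interval from -4.48 to -0.39 before adjustment. Without replicate 3 of the cocultures it was -2.05 and was called lower (edgeR, adjusted p = 3.43e-07). DESeq2 called it lower with all 8 libraries, at -2.47 (DESeq2, adjusted p = 0.0151).

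Mcpt8 (chr14:56082166-56085273, minus strand) encodes mast cell protease 8, a serine protease that in mice is made by basophils and is widely used to mark them. It was measured at 95.3, 164, 112 and 82.3 CPM in MKs cultured alone and at 99.4, 127, 47.3 and 87.3 CPM in cocultures. The groups overlapped, and 3 of the 4 cocultures lay inside the range of MKs cultured alone. The log2 fold change was -0.33 ± 0.34 (SE, edgeR, adjusted p = 0.525), with a 95% interval from -1.09 to 0.43, and it was -0.14 without replicate 3 of the cocultures (edgeR, adjusted p = 0.617). The interval leaves room for a fall of about the 2-fold limit, so an equal level was not shown. The GENCODE annotation places a microRNA gene inside Mcpt8 and another inside Cpa3, and how reads of overlapping genes were assigned is not given in the sources used here.

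Hdc (chr2:126593667-126619299, minus strand) encodes histidine decarboxylase, the enzyme that makes histamine. It was present at 153, 238, 252 and 208 CPM in MKs cultured alone and at 38.6, 36.5, 44.2 and 34.7 CPM in cocultures. The cocultures lay close together, replicate 3 included, with an SD of 4.11 CPM. The log2 fold change was -2.47 ± 0.22 (SE, edgeR, adjusted p = 9.70e-05), the smallest SE among the 7 genes, and leaving out a library moved it between -2.61 and -2.38.

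Cd200r3 (chr16:44943678-44981380, plus strand) encodes a member of the CD200 receptor family on mast cells and basophils that signals through an activating adaptor. It stood at 36.9, 41.0, 48.1 and 35.3 CPM in MKs cultured alone and at 6.45, 3.26, 0 and 3.12 CPM in cocultures. Replicate 3 held 0 counts, which allows up to 0.314 CPM. The log2 fold change was -3.64 ± 0.99 (SE, edgeR, adjusted p = 0.0286), and -3.21 without that library (edgeR, adjusted p = 8.38e-08).

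**Figure D2:**
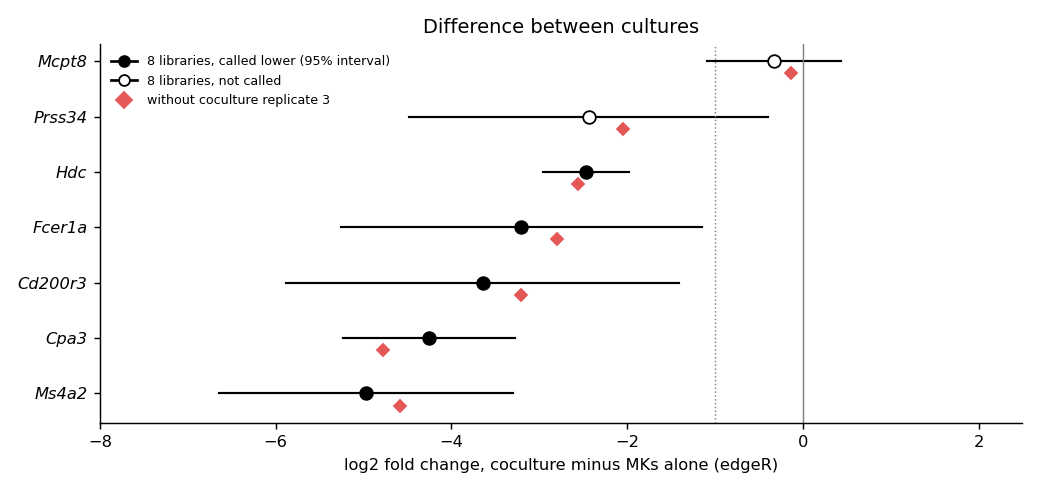
Log2 fold change of each gene in cocultures against MKs cultured alone by edgeR, with its 95% interval (line), for 8 libraries (circles, filled where called lower) and, without an interval, without coculture replicate 3 (diamonds). The dotted line marks the 2-fold limit, and the interval of Mcpt8 crosses 0 while the other 6 intervals do not.

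The log2 fold changes ran from -4.97 for Ms4a2 to -0.33 for Mcpt8. To compare genes within a library, the log2 ratio of counts (with 0.5 added to each) was formed for each of the 21 pairs and compared between cultures with a two-sided exact permutation test. The ratio of Mcpt8 to each of the other 6 genes was higher in 4 of 4 cocultures than in any library of MKs cultured alone (exact permutation test, each p = 0.0286, or 0.06 when adjusted over the 21 pairs by Benjamini-Hochberg, which does not pass). Any pair whose ratios are fully separated between the cultures gives this p, and 10 of the 21 pairs had it. The pairs without Mcpt8 were Ms4a2 with Hdc, Cpa3 with Hdc, Hdc with Cd200r3 and Prss34 with Cd200r3. A shift of the ratio was thus not particular to Mcpt8. The rise of the Mcpt8 ratio was 32.2-fold against Ms4a2, 22.5-fold against Cd200r3, 16.7-fold against Cpa3, 15.4-fold against Fcer1a, 9.01-fold against Prss34 and 4.22-fold against Hdc. Without replicate 3 of the cocultures these values were 24.2, 9.21, 26.3, 6.68, 3.77 and 5.38. The protease pair Mcpt8 and Prss34 had a nearly constant log2 ratio in MKs cultured alone, at -1.65 ± 0.14 (SD, n = 4), and 1.53 ± 2.53 in cocultures.

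As a share of the summed counts of the 7 genes, Mcpt8 made up 6.86% to 11.6% in MKs cultured alone and 35.7% to 47.9% in cocultures. Replicate 3, which differed in other shares, had 35.7%. The share of Cpa3 went from between 25.6% and 37.1% in MKs cultured alone to between 4.12% and 6.90% in cocultures 1, 2 and 4, and was 29.7% in replicate 3. The share of Prss34 stayed between 29.7% and 35.9% in cocultures 1, 2 and 4, against 22.3% to 32.8% in MKs cultured alone, and was 0.868% in replicate 3.

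**Figure D3:**
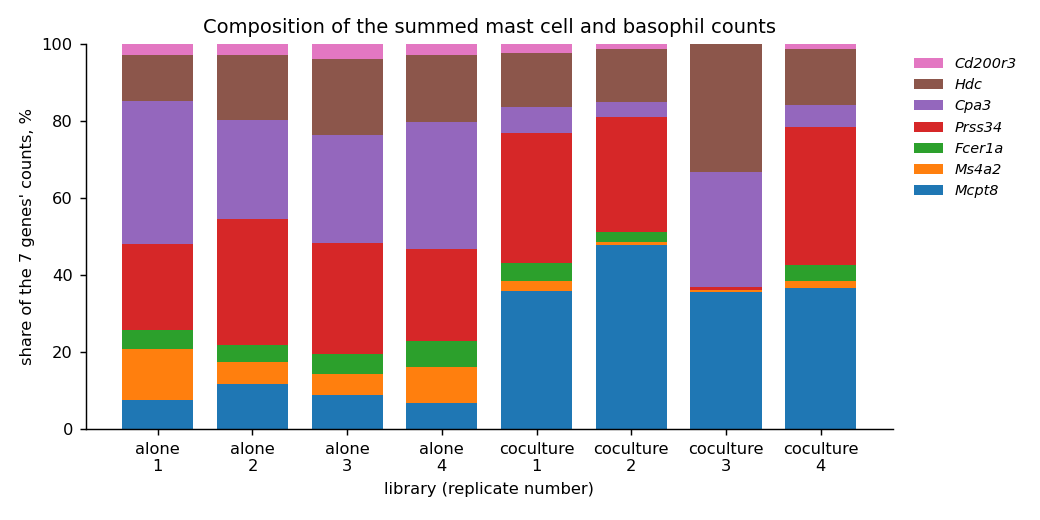
Share of each gene in the summed counts of the 7 genes (vertical axis, percent) for each of the 8 libraries, as stacked bars. Mcpt8, at the bottom, takes 6.86% to 11.6% in MKs cultured alone and 35.7% to 47.9% in cocultures, and Fcer1a, Prss34 and Cd200r3 nearly vanish in coculture replicate 3.

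Levels of different genes were compared per length, as CPM per kilobase of exon (GENCODE vM21), with the exons of all transcripts of a gene merged. This length was 6389 bases for Hdc and 5984 for Cd200r3, against 998 for Fcer1a and Mcpt8. Which transcripts were present was not examined, so the order of genes depends on this choice of length. In MKs cultured alone the order was Prss34 at 287 ± 68.8, Cpa3 at 261 ± 35.3, Mcpt8 at 114 ± 35.9, Fcer1a at 69.3 ± 9.27, Ms4a2 at 38.2 ± 15.7, Hdc at 33.3 ± 6.86 and Cd200r3 at 6.74 ± 0.958 CPM per kilobase (SD, n = 4). The mean ± SD ranges of Prss34 and Cpa3 overlapped, as did those of Mcpt8 and Fcer1a and of Ms4a2 and Hdc. These ranges, here and for the cocultures, do not use the fact that the genes were measured in the same libraries. In cocultures the order was Mcpt8 at 90.5 ± 33.3, Prss34 at 53.1 ± 35.1, Cpa3 at 13.6 ± 8.52, Fcer1a at 7.52 ± 5.54, Hdc at 6.02 ± 0.643, Ms4a2 at 1.21 ± 0.993 and Cd200r3 at 0.536 ± 0.440 CPM per kilobase (SD, n = 4). Among neighbours there, the mean ± SD ranges of Hdc and Ms4a2 were separate, and those of the other 5 pairs of neighbours touched or overlapped. With these lengths Mcpt8 moved from the third place to the first.

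The genes around the members were read from 10 lists, each beside the 7.31% of all genes called lower and 13.2% called higher with 8 libraries. For counts with 1 library left out, here and for other marrow cells below, the shares differ. Without replicate 3 of the cocultures, 15.4% of all genes were called lower, and 2530 of 12267 higher. Without any other single library, 4.42% to 5.91% were called lower, and 1071 to 1518 genes higher. Of 20 genes of FcεRI signalling, 8 were called lower and 0 were called higher, with a median log2 fold change of -0.97. They included Lyn, the Src family kinase that phosphorylates the receptor chains (-1.34, edgeR, adjusted p = 0.00492), and Syk, the kinase recruited to them (-1.20, edgeR, adjusted p = 0.00236). Lyn had 295 ± 24.9 CPM in MKs cultured alone and 116 ± 40.2 CPM in cocultures, and Syk had 213 ± 30.7 and 92.6 ± 12.9 CPM (SD, n = 4). Pik3cg, a phosphoinositide 3-kinase of leukocytes, fell most in this list, at -2.23 (edgeR, adjusted p = 5.27e-05). Without replicate 3 of the cocultures, 15 genes of the list were called lower, and without replicate 2 it was 5. Many of these genes work in MKs, neutrophils and B cells too.

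Histamine handling had 4 genes that could be tested, of which 2 were called lower. Slc18a2, the vesicular transporter that loads histamine and other amines into granules, had 181 ± 54.5 CPM in MKs cultured alone and 49.2 ± 10.3 CPM in cocultures (log2 fold change -1.88, edgeR, adjusted p = 0.00139). Hrh2, the histamine H2 receptor, had 13.1 ± 3.92 and 1.43 ± 1.04 CPM (-3.21, edgeR, adjusted p = 0.0237). Without replicate 3 of the cocultures, where 6 genes of this list could be tested, 5 were called lower and 1 higher, and 1 was called lower without replicate 1 or 2 of the cocultures or without replicate 1, 2 or 3 of MKs cultured alone.

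Of 15 genes of granule proteoglycan and protease maturation, 3 were called lower (Rab27a, Serpinb1a and Srgn) and 4 higher (Ext1, Ext2, Hs6st1 and Lamp1), with a median of -0.40. Those higher comprise glycosyltransferases and a sulfotransferase of heparan sulfate and a lysosomal membrane protein. Ext1, a heparan sulfate polymerase, had the largest change, at 3.79 (edgeR, adjusted p = 0.0171), although replicate 3 of the cocultures had 2.30 CPM, below the libraries of MKs cultured alone. Cd63, a tetraspanin of granule membranes, had 953 ± 170 CPM in MKs cultured alone and 1310 ± 91.9 CPM in cocultures, with a log2 fold change of 0.46 (edgeR, adjusted p = 0.113). The list's higher calls fell to 2 without replicate 1, 2 or 3 of MKs cultured alone and to 1 without replicate 4, and the lower calls to 2 without any one library other than replicate 3 of the cocultures.

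Of 7 genes of leukotriene and prostaglandin D2 synthesis, 3 were called lower (Alox5, Alox5ap and Lta4h) and 2 higher (Hpgds and Ptgs2). Alox5ap, the protein that presents arachidonic acid to 5-lipoxygenase, had 524 ± 30.8 CPM in MKs cultured alone and 139 ± 35.9 CPM in cocultures (-1.92, edgeR, adjusted p = 0.000289). Ptgs2, the inducible cyclooxygenase, had 0.698 ± 0.633 and 156 ± 69.0 CPM (7.80, edgeR, adjusted p = 0.000255). The lower calls were 2 without any one library other than replicate 3 of the cocultures.

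Of 15 transcription factors of mast cells and basophils, 6 were called lower (Gata2, Ikzf1, Irf8, Lmo2, Stat5b and Tal1) and Cebpb was called higher, with a median of -1.04. Gata2, required for both lineages, had 63.4 to 86.9 CPM in MKs cultured alone and 15.8 to 32.1 CPM in cocultures (-1.65, edgeR, adjusted p = 0.00344). Gata1, which MKs depend on, had 74.3 ± 14.5 and 43.7 ± 25.9 CPM, with a log2 fold change of -0.76 (edgeR, adjusted p = 0.197). Lmo2, a partner of the GATA factors, had a log2 fold change of -1.16 (edgeR, adjusted p = 0.00109), and Ikzf1, a lymphoid and myeloid regulator, one of -2.80 (edgeR, adjusted p = 9.70e-05). Cebpb was not called higher without replicate 1 or replicate 2 of MKs cultured alone.

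Growth receptors and their ligands had 10 genes tested, of which Kit and Csf2rb were called lower and Il1rl1 was called higher. Kit, the stem cell factor receptor carried by mast cells and by progenitors, had 192, 223, 190.1 and 203 CPM in MKs cultured alone and 24.1, 20.6, 0.942 and 20.3 CPM in cocultures (-3.62, edgeR, adjusted p = 0.00901). Kitl, which encodes its ligand and is a product of MSCs, had 1.77, 0.206, 0 and 0 CPM in MKs cultured alone and 36.1, 18.8, 0 and 30.4 CPM in cocultures. The groups overlapped because replicate 3 of the cocultures held 0 counts, and Kitl did not pass the test (5.59, edgeR, adjusted p = 0.0591). Without that library 4 genes of the list were called lower and 2 higher.

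Of 16 genes listed for mature mast cells, 3 were tested and Kit alone was called lower, with Slc45a3 and Rab27b not passing. Rab27b, a GTPase of granule secretion that platelets also use, had 251 ± 84.5 CPM in MKs cultured alone and 106 ± 55.8 CPM in cocultures (-1.25, edgeR, adjusted p = 0.100). The chymase and tryptase genes that define mature mast cells were not analysed here, so the data do not separate the mast cell part of the label from the basophil part. Of 12 further basophil genes, 5 were called lower (Cd69, Cyp11a1, Ifitm1, Il18r1 and Il18rap) and 1 higher, with a median of -1.73. The one called higher, Csf1, encodes the macrophage growth factor, which stromal cells make, and had 11.2 ± 3.72 CPM in MKs cultured alone and 537 ± 224 CPM in cocultures (5.57, edgeR, adjusted p = 8.62e-05). Without replicate 3 of the cocultures 8 of these genes were called lower, and 2 were called lower without replicate 2 of the cocultures or replicate 2, 3 or 4 of MKs cultured alone, or 3 without replicate 1 of either group's libraries.

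Relatives of the members did not share one direction. Of 9 other MS4A genes, 5 were called lower and 2 higher, among them the B cell gene Ms4a1 at -2.82 (edgeR, adjusted p = 0.0196) and the macrophage gene Ms4a7 at 5.70 (edgeR, adjusted p = 1.51e-05). The lower calls numbered 2 to 4 with any one library left out other than replicate 3 of the cocultures, and 7 without that one. Of 3 genes for CD200 and its other receptors, Cd200r1, an inhibitory receptor of myeloid cells, was called higher, from 35.3 ± 9.66 to 103 ± 52.1 CPM (1.54, edgeR, adjusted p = 0.0198), opposite to Cd200r3. That call was lost without replicate 2, 3 or 4 of MKs cultured alone. These genes are close relatives, and how reads of similar copies were assigned is not given in the sources used here.

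**Figure D4:**
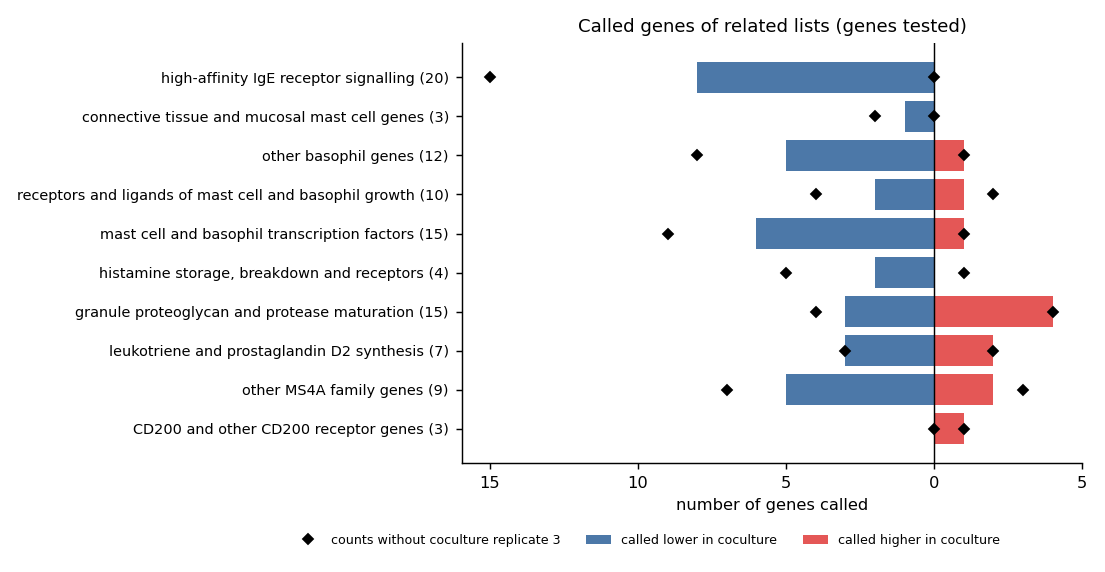
Number of genes called lower (blue, to the left) and higher (red, to the right) in cocultures for 10 lists around the members, with the number of genes tested with 8 libraries in parentheses and the counts without coculture replicate 3 as diamonds. FcεRI signalling has 8 genes called lower and 0 higher, and granule maturation has 3 lower and 4 higher. Of all genes tested, 7.31% were called lower with 8 libraries and 15.4% without coculture replicate 3.

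Markers of other marrow cells moved between the same cultures, and their part in the results above was not tested. Of 10 eosinophil markers 9 were called lower, with a summed level of 1152 to 1867 CPM in MKs cultured alone and 13.8 to 70.4 CPM in cocultures, led by Prg2 (-5.26) and with the largest fall for Siglecf (-5.38). Of 14 neutrophil markers 14 were called lower, from 85557 to 87803 CPM to between 4554 and 10361 CPM, with S100a8 at -3.46 and Mpo at -4.63. Of 10 B cell markers 5 were called lower (1302 to 1667 CPM against 403 to 491 CPM, Cd74 at -1.37), and 2 without replicate 2 of the cocultures, 3 without replicate 4 of the cocultures or without replicate 1 or 2 of MKs cultured alone. Of 6 T and NK cell markers 3 were called lower (130.2 to 221 CPM against 1.05 to 30.0 CPM, Nkg7 at -3.20 and Klrb1c at -4.42), 1 without replicate 4 of the cocultures or any one library of MKs cultured alone, and 6 without replicate 3 of the cocultures. Of 10 monocyte and macrophage markers 9 were called higher and 0 lower, with C1qb at 7.68, although the sum was 12727 to 17642 CPM against 9755 to 12013 CPM because it is made up mostly of Lyz2 (-0.68, not called). Of 9 MSC markers 7 were called higher (153 to 187 CPM against 1264 to 4256 CPM, Sparc at 10.95 and Col3a1 at 12.41). Of 15 MK and platelet markers 0 were called, with summed levels of 1911 to 2251 CPM and 1761 to 2361 CPM and Pf4 at 0.35. Of 5 erythroid markers 0 were called (38.8 to 62.8 CPM against 19.6 to 93.8 CPM, Hbb-bs at 0.61), and 4 were called lower without replicate 3 of the cocultures.

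The genes most like the members were sought by Pearson's r between their log2(CPM + 1) and the mean of the members over 8 libraries. Chil3 (r = 0.998), Ly6g (0.997), Casp2 (0.996), S100a8 (0.996) and Fpr2 (0.996) came first, among 522 genes with r of at least 0.95. Of these, Chil3, Ly6g, S100a8 and Fpr2 are known as neutrophil genes. These values follow the difference between cultures and the low values of replicate 3, which the 8 points share. After subtraction of the group means, Hinfp (0.996), Cyp1b1 (0.996), Pogz (0.996), Derl1 (0.996) and Tnrc6a (0.991) came first and 1468 genes reached 0.95, with replicate 3 of the cocultures as the point far from the rest.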

How the data were processed

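Bulk RNA-Seq was analyzed for 8 libraries of C57BL/6 murine cells, 4 of MKs cultured alone and 4 of MKs cocultured with MSCs, with groups and replicate numbers taken from the labels. The authors deposited 1 table of raw counts per gene symbol, without normalization. Per the methods, paired-end SMART-Seq HT reads were filtered by fastp and quantified by kallisto on the mm10 transcriptome, and a batch term, whose batches are not named in the sources used here, entered the DESeq2 design of the study. No covariate for it could be used here. Versions, the summing over transcripts, rounding, the use of strand and the authors' gene filter are not given in the sources used here. Low-input amplification without molecular identifiers means that counts are not independent molecules.

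Counts were tested with edgeR 4.0.16 in R 4.3.3 (TMM factors, filterByExpr with a minimum count of 10, robust quasi-likelihood F test, 8 libraries, no covariate), and p-values were adjusted by Benjamini-Hochberg over 11722 genes. The SE of a log2 fold change was its size divided by the square root of F. Genes were called after the cutoffs of the study, with CPM in place of TPM. Exact permutation tests and ratios used Python 3.11 with scipy 1.17.1. DESeq2 1.42.0, other scalings, filters and cutoffs, glmTreat, a block on replicate number and each library left out were alternatives. In simulated counts with 200 of 11148 genes changed 4-fold, edgeR and DESeq2 each recovered 200, and called 1 and 0 other genes. The simulation gave all genes the same dispersion and held no library like replicate 3 of the cocultures. It thus does not show how the tests perform on these data. Gene positions and exon lengths came from GENCODE vM21 (GRCm38, the build of mm10), and promoters from RefSeq on GRCm38.p6.

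The members and the 18 gene lists were chosen with earlier results of these data known, and the lists were written by hand. The genes named are the 7 members, the gene of each list with the highest mean CPM over the 8 libraries and its most changed called gene, 8 receptor, ligand, kinase and factor genes (Fcer1g, Lyn, Syk, Kit, Kitl, Gata1, Gata2 and Slc18a2) and the 5 genes most like the members. Names of other called genes, the pair ratios and the comparison of shares were chosen after values were seen. No library was left out of the values reported with 8 libraries.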

Additional observations from a re-analysis of the deposited data

Results flagged for a closer look

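In each group of 4 libraries, the levels of the 7 genes and their sum were examined for a value standing far from the remaining ones. This was seen in 1 of the 16 sets of values, and about 0.8 would be seen by chance. It was Prss34 in replicate 3 of the cocultures, with a log2(CPM + 1) of 1.105, far below the other cocultures.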

How the results depend on the processing

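The count of members called lower, 5, was 3 with glmTreat and 2 when each gene needed at least 10 counts in every library, a filter that removes Ms4a2, Fcer1a and Cd200r3 before testing. It was 5 to 6 under the other alternatives run on 8 libraries, except for the replicate number as a block, and leaving out single libraries gave 3 to 6. The number of genes called, 2401, was 1121 with glmTreat and 1634 to 4420 when single libraries were omitted. The members called higher stayed at 0 under every alternative run. The members' median of -3.20 remained negative, between -3.80 (DESeq2 with the block) and -2.53 (at least 10 counts in every library). These moves were smaller than the SD between cocultures of 1.35. That SD takes in the low values of replicate 3, so staying within it is a weak criterion.

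With the replicate number as a block, edgeR called 3 members lower (Ms4a2, Cpa3 and Hdc), beside 573 of 11722 genes lower and 1669 called in either direction, with a median of -3.73 for the members. Fcer1a had -3.73 (edgeR, adjusted p = 0.0969) and Cd200r3 -4.13 (edgeR, adjusted p = 0.104). The numbers are not known to pair libraries: deviations from the group means correlated across genes at r = 0.369, 0.0198, 0.150 and 0.0280 between libraries of the same number, and not each library correlated best with its own number. DESeq2 with the block called 6 members lower, beside 1392 of 11722 genes. In the lists, the block in edgeR lowered the calls of lower T and NK cell markers from 3 to 0, of other basophil genes from 5 to 1, of other MS4A genes from 5 to 2 and of histamine genes from 2 to 1, and the calls of higher granule genes from 4 to 2 and of CD200 receptors from 1 to 0. In single members 110 values kept their direction and their side of the threshold, 16 no longer passed it and 4 newly passed it. These include the exact permutation tests, for which passing meant an unadjusted p of at most 0.05. The new passes were all of Prss34, its permutation test among them. For lists, 308 counts stayed within 1.5 times, 41 were smaller and 11 larger. The cause of these changes was not tested. Replicate 3 of the cocultures held 0 to 11 counts each of Fcer1a, Ms4a2, Prss34 and Cd200r3, and its total of 12523616 counts was the highest. It also had counts on the fewest genes, 10735, and the cause of its low values was not tested.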

Other observations

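In replicate 3 of the cocultures the 7 genes did not fall together. Hdc, Cpa3 and Mcpt8 held 422, 376 and 452 counts there, whereas Prss34, Ms4a2, Fcer1a and Cd200r3 held 11, 5, 1 and 0. Cpa3 was higher in that library, at 39.3 CPM, than in the other cocultures, at 10.9 to 19.1 CPM, and also per raw total without TMM (30.0 CPM against at most 20.1 CPM). The place of Hdc turned with the scaling: it was the highest coculture on the TMM scale, at 44.2 against 34.7 to 38.6 CPM, and the lowest per raw total, at 33.7 against 38.5 to 40.6 CPM.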
